A study of Mus musculus with 6 samples.

Results

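The genes described here build, sense, take up, store and export cholesterol, and they were followed in mature brown fat of mice with and without a Phospho1 knockout label. They were chosen by name, as 33 listed symbols looked up by Ensembl identifier among the 37620 identifiers of the deposited count files. Of these, 32 had a row in the files, and all 32 passed the filter on low counts beside 12068 tested genes in all. Expression of Hmgcs1, the cytosolic HMG-CoA synthase, was not analysed here; its promoter is included below. The 32 genes fall into 16 synthesis enzymes, 6 genes of sterol sensing (Srebf2, Scap, Insig1, Insig2, Nr1h2 and Nr1h3), 6 of uptake and handling inside the cell (Lrp1, Scarb1, Npc1, Npc2, Stard4 and Soat1) and 4 of efflux (Abca1, Abcg1, Apoe and Apoc1).

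Phospho1 encodes a phosphatase of phosphocholine and phosphoethanolamine. The KO group had 3 libraries from mice labelled as PHOSPHO1 knockouts, and the WT group had 3 libraries from wild-type mice, all on the C57BL/6 strain background and aged 6 weeks. Each library pooled 3 mice. The labels give no treatment, no sex and no account of how the allele was made, and they name no tissue-specific driver. The cells were the buoyant layer left after collagenase digestion of brown fat, from which mRNA was sequenced.

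Cells make cholesterol from acetyl-CoA through mevalonate, farnesyl diphosphate, squalene and lanosterol. When sterols in the endoplasmic reticulum run low, SCAP escorts SREBP2 to the Golgi, where it is cleaved to a transcription factor that induces the synthesis enzymes; INSIG1 and INSIG2 hold SCAP back when sterols are plentiful. When sterols accumulate, oxysterols activate the nuclear receptors LXRα (Nr1h3) and LXRβ (Nr1h2), which induce the export pumps ABCA1 and ABCG1. Fat tissue is a large store of mostly unesterified cholesterol, held in membranes and at the surface of lipid droplets, and much of it comes from lipoproteins.

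The promoters of 5 genes are printed because these genes bear on the results below: Abca1, the one gene past the threshold; Soat1, which has the highest fold change of the 32, and Insig1, whose libraries lay lower in KO without overlap; and Cyp51 and Msmo1, which encode enzymes that act close together in the removal of methyl groups from lanosterol and whose libraries separated in opposite directions. The sequences are RefSeq's on build GRCm38.p6, the 250 bases before the start, 5′ to 3′ on the strand of the gene. They lie at chr4:53159896-53160145 on the minus strand (Abca1), chr1:156474329-156474578 on the minus strand (Soat1), chr5:28071162-28071411 on the plus strand (Insig1), chr5:4104698-4104947 on the minus strand (Cyp51) and chr8:64733579-64733828 on the minus strand (Msmo1). Capitals mark, on either strand, CCAAT (the NF-Y word), GGGCGG (the Sp1 word) and, in Abca1 alone, a direct repeat of the kind LXR binds.
Abca1: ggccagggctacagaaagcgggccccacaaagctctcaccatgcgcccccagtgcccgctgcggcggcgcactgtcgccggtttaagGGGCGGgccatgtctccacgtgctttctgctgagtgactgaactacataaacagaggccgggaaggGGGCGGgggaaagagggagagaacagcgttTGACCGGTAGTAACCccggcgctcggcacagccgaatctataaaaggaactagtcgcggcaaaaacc
Soat1: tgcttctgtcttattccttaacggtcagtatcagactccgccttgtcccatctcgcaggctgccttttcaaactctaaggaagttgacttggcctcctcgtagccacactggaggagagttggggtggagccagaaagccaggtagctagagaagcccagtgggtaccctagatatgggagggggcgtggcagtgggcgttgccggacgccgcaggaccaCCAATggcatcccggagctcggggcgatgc
Insig1: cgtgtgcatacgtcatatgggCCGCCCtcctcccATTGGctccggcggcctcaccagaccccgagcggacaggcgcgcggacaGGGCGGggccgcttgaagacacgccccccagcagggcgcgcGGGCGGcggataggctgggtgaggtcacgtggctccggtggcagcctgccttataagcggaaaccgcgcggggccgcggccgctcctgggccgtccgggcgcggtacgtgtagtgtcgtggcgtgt
Cyp51: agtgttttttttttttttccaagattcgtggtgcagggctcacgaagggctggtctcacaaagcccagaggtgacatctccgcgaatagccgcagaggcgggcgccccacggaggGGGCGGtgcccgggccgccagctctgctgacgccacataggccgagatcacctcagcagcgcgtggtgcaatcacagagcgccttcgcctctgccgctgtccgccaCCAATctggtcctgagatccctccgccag
Msmo1: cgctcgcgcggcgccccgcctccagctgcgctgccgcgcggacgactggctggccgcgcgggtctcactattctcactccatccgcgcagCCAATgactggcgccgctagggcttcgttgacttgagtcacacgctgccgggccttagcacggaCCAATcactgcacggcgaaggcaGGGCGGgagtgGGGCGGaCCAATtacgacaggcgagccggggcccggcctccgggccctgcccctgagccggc

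RefSeq windows reaching from 250 bases before to 50 bases after the start matched 25 of the 33 listed genes, with 34 windows in all. Fdps, Fdft1, Sqle, Npc1, Stard4, Scarb1, Abcg1 and Apoc1 had no window and were not searched. CCAAT stood in at least 1 window of all 14 matched synthesis genes, Hmgcs1 included, and in 82.4% of their 17 windows, against 37.4% of the 32851 windows of all genes. Of the 25 matched genes, 19 held CCAAT, among them Insig1, Insig2, Srebf2, Npc2 and Soat1. GGGCGG stood in 70.6% of the 34 windows, against 35.7% of all windows and 62.8% of windows of tested genes. TCACNCCAC, the core of the SREBP element, was found in Hmgcs1 alone of the 25 matched genes, against 1.24% of all windows. The LXR-type repeat was GGTNA and GGTCA with 5 bases between them. It was found in Abca1 alone of the 25 matched genes, in the reverse direction, against 0.207% of all windows. Abcg1 was not among the genes searched, and the motif was chosen with the LXR element of Abca1 known. No searched words overlap in the printed stretches. A match is a description of letters and not of a bound site.

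Library totals ranged from 10576800 to 13750632 counts in KO and from 12132987 to 14239307 counts in WT. The 32 genes held 31135 to 36292 counts in KO libraries and 27357 to 43571 in WT libraries, or 0.225% to 0.340% of a library, from 4 counts for Idi1 in KO library 2 to 15947 counts for Apoe in WT library 1. Counts of the targeted gene were not lower under the KO label: Phospho1 had 18, 15 and 17 counts in the KO-labelled libraries and 13, 5 and 5 in WT (adjusted p = 0.056, edgeR), and since the position of the deletion is not given, these counts do not check the label. KO and WT below are therefore the labels. All 8 brown adipocyte markers were detected, with summed levels of 23802 to 32401 CPM (counts per 1000000) in KO and 19394 to 27943 in WT. Of the 8, 1 was higher in KO at an adjusted p under 0.05 (edgeR), where 1.63% of all tested genes were called higher. The libraries also differed in how counts depended on transcript length: the slope of a gene's log2 level, relative to its mean, on log2 length was -0.238, -0.0932 and -0.249 in the KO libraries and 0.306, -0.0255 and 0.2996 in the WT libraries. Fold changes are therefore given both from edgeR's quasi-likelihood test with TMM scaling and, where it matters, with offsets that remove each library's trend with length and GC content, using the longest annotated transcript unless another is named. CPM are computed on TMM-scaled library sizes, and adjusted p-values are Benjamini-Hochberg values over all tested genes, with a threshold of 0.05.

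Of the 32 cholesterol genes, 1 was lower in KO past the threshold and none was higher. Abca1, the pump that loads cellular cholesterol onto apolipoprotein A-I and a known LXR target, was the gene that fell, by 1.84 on the log2 scale. Over all genes, 7.52% were called lower and 1.63% higher, so 1 of 32 called lower is no more than the background share. Without adjustment, 4 genes were higher (Fdft1, Ebp, Nr1h3 and Soat1) and 2 were lower (Abca1 and Insig1) at an edgeR p under 0.05, against 12.3% higher and 18.6% lower of all tested genes, so the count higher is near the background share and the count lower is below it. The median log2 fold change was 0.19 over the 32 genes and 0.03 over all tested genes, with 19 genes positive and 13 negative. With offsets built on the median transcript length the medians were 0.03 over the 32 genes and 0.06 over all genes, so the order of the medians turned. In bulk RNA, fewer cells of a type and less RNA per cell cannot be told apart. With length and GC offsets none of the 32 was called, and over all genes 1 was called higher (0.00829%) and none lower.

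**Figure D1:**
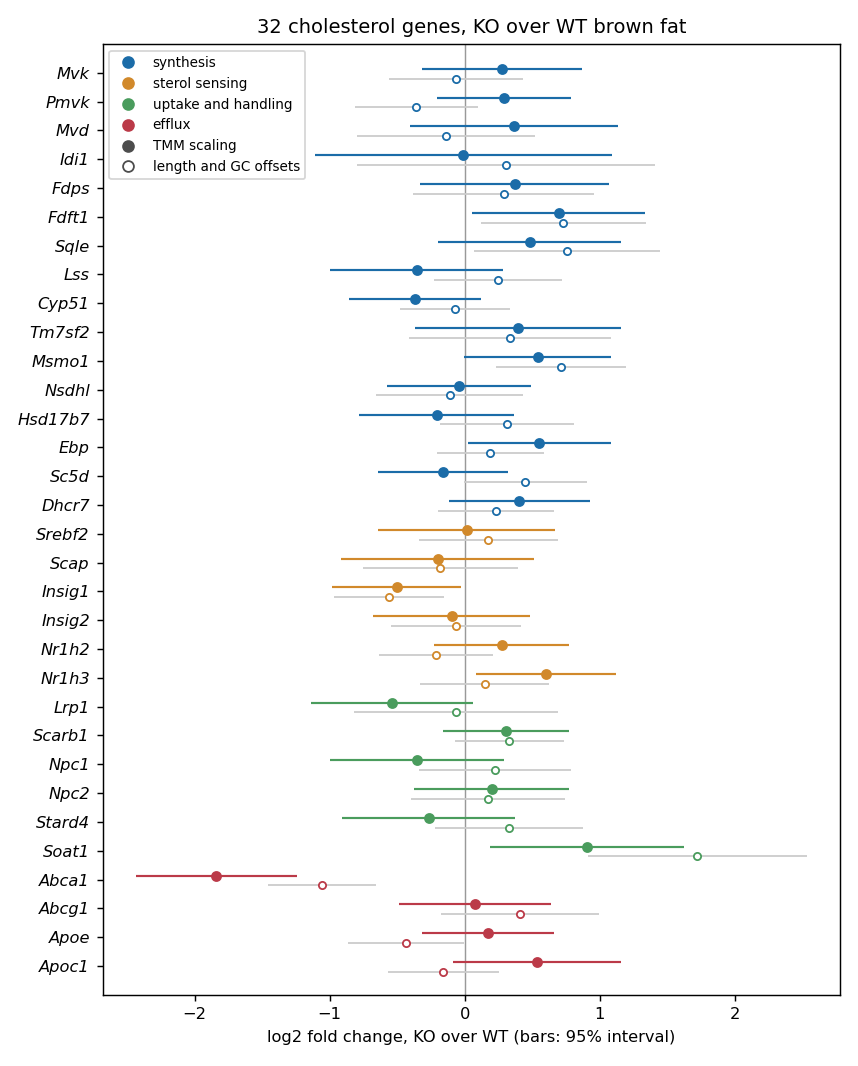
Log2 fold change of each of the 32 cholesterol genes (rows), KO over WT, with bars for the 95% interval, in filled points with TMM scaling and in open points with length and GC offsets; colours mark synthesis, sensing, uptake and handling, and efflux. Abca1 stands apart at -1.84, and at -1.06 with offsets; Soat1 lies highest at 0.91, and at 1.72 with offsets.

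Among the efflux genes, Abca1 separated the groups most. It had 12.1, 14.4 and 12.9 CPM in the KO libraries, against 58.0, 32.1 and 51.1 CPM in the WT libraries, from 137, 176 and 126 counts in KO and 1028, 470 and 569 in WT. Every KO library was below every WT library, and the WT libraries were spread more widely than the KO libraries. The means were 13.1 ± 1.2 CPM in KO and 47.0 ± 13.4 CPM in WT (SD, n = 3 each). On the log2 scale the difference was -1.84 (SE 0.27, 95% interval -2.43 to -1.24, adjusted p = 0.016, edgeR), which is 3.58-fold lower in KO.

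The size of the Abca1 difference depended on the correction for transcript length, since its longest annotated transcript has 10262 bases. With length and GC offsets the log2 fold change was -1.06 (95% interval -1.46 to -0.66, adjusted p = 0.062, edgeR), and with offsets built on the median transcript length it was -1.13 (adjusted p = 0.049, edgeR). Among the 615 tested genes with a longest transcript of at least 8000 bases, the median log2 fold change was -0.80, 26.0% were called lower, and 8.62% were at or below the value of Abca1. The call was also lost without KO library 3 (log2 fold change -1.84, adjusted p = 0.0718, edgeR) and without WT library 1 (-1.67, adjusted p = 0.122, edgeR). Abca1 shares no annotated exonic bases with another gene.

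The other 3 efflux genes did not pass the test. Abcg1, the pump that exports cholesterol to high-density lipoprotein and also a known LXR target, had 9.64, 9.35 and 7.45 CPM in KO and 7.73, 8.67 and 8.71 CPM in WT. Those ranges overlap, and the log2 fold change was 0.08 (95% interval -0.49 to 0.64, adjusted p = 0.856, edgeR). With length and GC offsets it was 0.41 (adjusted p = 0.377, edgeR), and with offsets on the median transcript it was -0.14. Set per kilobase of principal transcript, the ratio of Abca1 to Abcg1 was 0.714, 0.877 and 0.981 in the KO libraries and 4.26, 2.10 and 3.33 in the WT libraries. Abca1 was thus the more abundant pump per length in each WT library, while the KO ratios were below 1, in KO library 3 only just. These levels carry no correction for the length slopes of the libraries, and the transcripts of the pair differ in length.

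Apoe, the apolipoprotein that carries lipid to hepatic and other receptors, was the cholesterol gene with the highest CPM. It had 977, 1209 and 1139 CPM in KO and 899, 1067 and 988 CPM in WT, with overlapping libraries and a log2 fold change of 0.17 (adjusted p = 0.614, edgeR). With offsets that value turned to -0.44 (adjusted p = 0.212, edgeR). Its neighbour Apoc1, which encodes an apolipoprotein of the same remnant particles, had 569, 621 and 755 CPM in KO and 327, 646 and 370 CPM in WT. WT library 2 lay within the KO range and the other two WT libraries lay below it, and the log2 fold change was 0.53 (adjusted p = 0.221, edgeR). Without WT library 2 it was 0.90 and called (adjusted p = 0.035, edgeR), and with offsets over all libraries it was -0.16. The hepatocyte markers were at or below 0.0884 CPM in sum in KO libraries and 0.614 to 1.08 CPM in WT libraries, with Ttr at 0 in all 6.

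**Figure D2:**
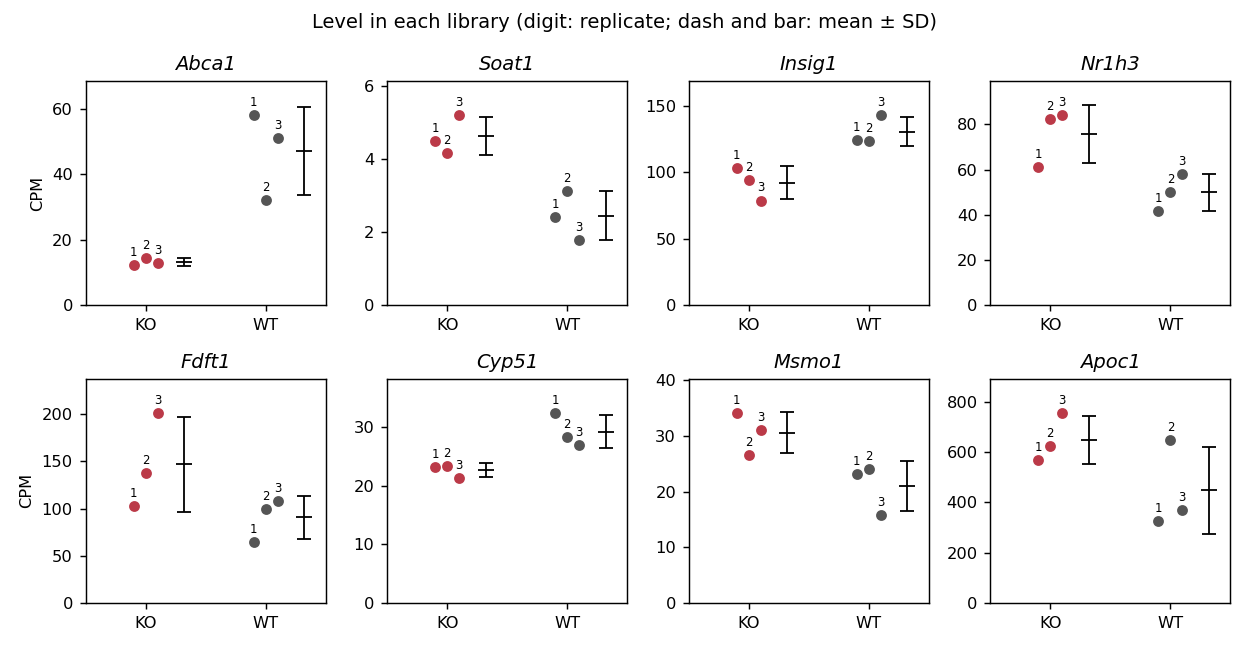
Level in CPM (vertical axis, from 0) of 8 cholesterol genes in each library, KO left and WT right in each panel, with replicate digits on the points and the mean ± SD beside them. The libraries do not overlap for Abca1, Insig1 and Cyp51 (lower in KO) or for Soat1, Nr1h3 and Msmo1 (higher in KO), and they overlap for Fdft1 and Apoc1.

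Among the uptake and handling genes, Soat1 had the largest difference. It encodes the endoplasmic reticulum enzyme that esterifies cholesterol with fatty acids for storage. Soat1 had 4.51, 4.18 and 5.21 CPM in the KO libraries and 2.42, 3.14 and 1.79 CPM in the WT libraries, from 51 counts in each KO library and 43, 46 and 20 in WT. All KO libraries were above all WT libraries, at a level where the counts themselves are few. The log2 fold change was 0.91 (SE 0.33, 95% interval 0.19 to 1.62) and did not pass the threshold (adjusted p = 0.094, edgeR). Its longest transcript is also over 8000 bases, but its sign was opposite to that of most such genes, of which 5 in 615 (0.813%) were at or above its value. Offsets therefore moved it away from 0, to 1.72 (adjusted p = 0.062, edgeR), and a GC offset alone gave 1.28 with a call (adjusted p = 0.049, edgeR). The ratio of Soat1 to Abca1 per kilobase was 0.456, 0.355 and 0.496 in KO and 0.0513, 0.120 and 0.0431 in WT. Soat1 and Abca1 have the highest and the lowest fold change of the cholesterol genes, so the separation of these ranges follows from the choice of the pair. Abca1 had the larger log2 fold change of the pair with TMM scaling, but Soat1 had it with length and GC offsets. With offsets on the median transcript the sizes were close, at 1.11 for Soat1 and -1.13 for Abca1 (adjusted p = 0.066 and 0.049, edgeR).

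Scarb1, the receptor that takes cholesteryl esters from high-density lipoprotein, had 107, 84.7 and 92.7 CPM in KO and 76.5, 82.1 and 71.4 CPM in WT. The groups did not overlap, yet the gap between KO library 2 and WT library 2 was small, and the log2 fold change of 0.31 did not pass the test (adjusted p = 0.343, edgeR). Its value with offsets was 0.33. Lrp1, a large endocytic receptor of remnant lipoproteins, had 9.11, 9.02 and 6.53 CPM in KO and 14.3, 12.0 and 9.51 CPM in WT, again without overlap. The log2 fold change was -0.54 (adjusted p = 0.206, edgeR), and with offsets on the longest transcript it was -0.06. With offsets on the median transcript it was -0.93 (adjusted p = 0.071, edgeR), so the value of Lrp1 depended on which transcript length was used.

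Npc1 and Npc2, which together move cholesterol out of the lysosome, overlapped between the groups. Npc2 had 517, 344 and 427 CPM in KO and 353, 480 and 288 CPM in WT (log2 fold change 0.20, adjusted p = 0.614, edgeR). Npc1 had 16.2, 28.1 and 18.6 CPM in KO and 21.3, 22.9 and 36.2 CPM in WT (log2 fold change -0.35, adjusted p = 0.427, edgeR; with offsets 0.23). Stard4, a soluble sterol carrier, had 14.6, 11.5 and 8.47 CPM in KO and 18.0, 12.6 and 10.9 CPM in WT (log2 fold change -0.27, adjusted p = 0.547, edgeR; with offsets 0.33). With offsets on the median transcript Npc1 was at -0.01 and Stard4 at -0.08, so the signs of both turned with some length corrections only, and the libraries of both overlap.

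In the sensing arm, Insig1 had the lowest fold change. It encodes the endoplasmic reticulum protein that retains SCAP and is itself a known SREBP target. Insig1 had 103, 94.2 and 78.8 CPM in the KO libraries and 125, 124 and 143 CPM in the WT libraries, with every KO library below every WT library. The log2 fold change was -0.50 (SE 0.22, 95% interval -0.98 to -0.02) and did not pass the threshold (adjusted p = 0.145, edgeR). The value with offsets was close, -0.56 (adjusted p = 0.113, edgeR). Insig2, its paralogue, had 51.8, 34.8 and 28.0 CPM in KO and 37.9, 46.7 and 37.8 CPM in WT, and these overlap (log2 fold change -0.10, adjusted p = 0.824, edgeR).

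Srebf2, which encodes SREBP2, had 4.95, 7.38 and 8.07 CPM in KO and 7.73, 5.26 and 7.18 CPM in WT. The log2 fold change was 0.02 with a 95% interval from -0.64 to 0.67, so a difference of up to about that size in either direction could not be told from 0. Scap, its escort, had 5.13, 10.4 and 7.96 CPM in KO and 9.70, 6.42 and 10.9 CPM in WT (log2 fold change -0.20, adjusted p = 0.692, edgeR). Both genes varied more among libraries of a group than between the groups.

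Nr1h3, which encodes LXRα, had 61.0, 82.4 and 84.0 CPM in KO and 41.6, 50.1 and 58.1 CPM in WT. All KO libraries were above all WT libraries, KO library 1 only narrowly, and the log2 fold change was 0.60 (95% interval 0.09 to 1.12, adjusted p = 0.115, edgeR). With offsets it was 0.15, with an interval from -0.33 to 0.63. Nr1h2, which encodes LXRβ, had 21.5, 22.1 and 26.1 CPM in KO and 20.5, 19.8 and 17.4 CPM in WT (log2 fold change 0.27, adjusted p = 0.425, edgeR; with offsets -0.21).

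Nr1h3, Abca1, Apoe and Soat1 are also expressed in macrophages, so the marker values stand beside them. All 12 macrophage markers were detected, and their summed level was 257 to 537 CPM in KO and 129 to 245 CPM in WT. Most of that sum was Lyz2, which rose (log2 fold change 1.43, adjusted p = 0.040, edgeR). Without Lyz2 the sum was 60.3 to 110 CPM in KO and 60.3 to 84.8 CPM in WT, which overlap, and Cd163 fell (log2 fold change -2.44, adjusted p = 0.048, edgeR). The summed stromal markers (726 to 893 CPM in KO and 635 to 825 CPM in WT) and endothelial markers (521 to 560 CPM in KO and 431 to 612 CPM in WT) also overlap, though 2 of 8 endothelial markers were called lower. The mural sum was 472 to 917 CPM in KO and 816 to 1268 CPM in WT, which overlap. Of its 5 markers, 3 (Acta2, Tagln and Myl9) were called higher, so the sum does not follow these 3. The erythroid sum was 1083 to 3198 CPM in KO and 329 to 1216 CPM in WT, with 2 of 3 markers called higher. Skeletal muscle markers were high in WT library 3 alone (26.4 to 77.7 CPM in KO and 26.6 to 733 CPM in WT), with 1 of 6 called lower. These marker calls are with TMM scaling, where 7.52% of all tested genes were called lower and 1.63% higher. With length and GC offsets, 1 of all 12068 tested genes was called higher and none lower. The part of other cells in the values of the 4 genes was not tested.

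No synthesis enzyme passed the threshold, and the 16 measured enzymes had a median log2 fold change of 0.33, with 10 positive and 6 negative. With offsets the median was 0.27, and with offsets built on the principal transcript it was 0.15. Per kilobase and summed over the 16 enzymes, the levels were 149, 150 and 182 CPM per kilobase in KO and 112, 138 and 128 in WT, so the summed KO libraries lay above the summed WT libraries. Without Fdft1, the most abundant enzyme, the sums were 122, 113 and 128 in KO and 94.7, 111 and 99.2 in WT, with KO library 2 only just above WT library 2. None of these sums carries a correction for the length slopes of the libraries. With total counts in place of TMM the median over all genes moved by more than 0.1, to -0.23, and the median over the 32 cholesterol genes moved with it, to -0.08.

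None of the mevalonate steps passed the threshold, and only the libraries of Pmvk did not overlap. Mvk, mevalonate kinase, had 8.93, 8.61 and 8.58 CPM in KO and 6.03, 8.87 and 6.64 CPM in WT. Pmvk, phosphomevalonate kinase, had 27.2, 28.0 and 34.6 CPM in KO and 22.4, 24.7 and 26.2 CPM in WT, without overlap (log2 fold change 0.29, adjusted p = 0.393, edgeR), but with offsets its value was -0.36. Mvd, the decarboxylase that forms isopentenyl diphosphate, had 3.36, 2.38 and 3.27 CPM in KO and 2.42, 2.87 and 1.62 CPM in WT.
The levels of Mvk and Mvd overlap between the groups, and their signs turned with offsets, to -0.06 and -0.14. Idi1, the isomerase of isopentenyl diphosphate, rested on 11, 4 and 8 counts in KO and 14, 11 and 6 in WT, too few to place it (log2 fold change -0.01, 95% interval -1.11 to 1.09). Fdps, which makes farnesyl diphosphate, had 10.5, 5.58 and 8.27 CPM in KO and 6.03, 7.92 and 4.85 CPM in WT. Of its exonic bases, 26.7% lie in another annotated gene on the same strand, so its value is uncertain.

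Fdft1, squalene synthase, stands at the branch where farnesyl diphosphate is committed to sterols. It had 102, 138 and 201 CPM in the KO libraries and 64.6, 100 and 108 CPM in the WT libraries. KO library 1 lay within the WT range, and KO library 3 was the highest by far. The log2 fold change was 0.70 (SE 0.29, 95% interval 0.06 to 1.34, adjusted p = 0.135, edgeR), and with offsets it was 0.73 (adjusted p = 0.153, edgeR). Of its exonic bases, 18.3% overlap Ctsb on the opposite strand. Ctsb had 1093, 1056 and 1209 CPM in KO and 974, 1043 and 928 CPM in WT, and since the strand setting of the counting is not given, reads of the pair may not be separated.

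Sqle, squalene epoxidase, the first oxygen-requiring step, had 8.84, 8.69 and 8.47 CPM in KO and 7.84, 6.89 and 3.77 CPM in WT. The groups did not overlap, WT library 3 was well below the others, and the log2 fold change was 0.48 (adjusted p = 0.301, edgeR; with offsets 0.76, adjusted p = 0.183). Lss, which closes the ring to lanosterol, had 6.46, 7.87 and 6.84 CPM in KO and 11.1, 6.21 and 9.78 CPM in WT. Those values overlap, and the log2 fold change of -0.36 turned to 0.25 with offsets.

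Cyp51 and Msmo1, which remove different methyl groups from lanosterol and its products, had fold changes of opposite sign with TMM scaling. Cyp51, whose promoter is printed above, had 23.3, 23.4 and 21.2 CPM in KO and 32.4, 28.3 and 27.0 CPM in WT. Every KO library was below every WT library (log2 fold change -0.37, 95% interval -0.86 to 0.12, adjusted p = 0.275, edgeR), and with offsets the value was -0.07. It was -0.34 with offsets on the median transcript and 0.02 with offsets on the principal transcript, so its sign depended on the correction. Msmo1 had 34.1, 26.7 and 31.0 CPM in KO and 23.2, 24.0 and 15.8 CPM in WT. Every KO library was above every WT library (log2 fold change 0.54, 95% interval -0.01 to 1.09, adjusted p = 0.166, edgeR), and with offsets the value was 0.72 (adjusted p = 0.098, edgeR). Neither gene passed the threshold, and the difference between the pair was not tested.

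Tm7sf2, a sterol reductase, had 6.10, 3.77 and 3.47 CPM in KO and 2.93, 4.50 and 2.69 CPM in WT, and shares 12.1% of its exonic bases with a neighbour on the same strand. Nsdhl, the dehydrogenase that works with Msmo1, had 23.0, 26.2 and 33.1 CPM in KO and 23.8, 28.3 and 32.7 CPM in WT, the closest match of all 32 genes save Srebf2 and Idi1 (log2 fold change -0.04). Hsd17b7, the ketoreductase of the same complex, had 7.87, 7.46 and 6.33 CPM in KO and 7.44, 8.46 and 9.15 CPM in WT. All 3 genes overlap between the groups.

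The late steps included 2 enzymes without overlap. Ebp, the sterol isomerase, had 44.4, 41.1 and 46.9 CPM in KO and 24.5, 38.0 and 27.6 CPM in WT (log2 fold change 0.55, 95% interval 0.03 to 1.08, adjusted p = 0.145, edgeR; with offsets 0.19). Dhcr7, the final reductase of the Kandutsch-Russell branch, had 12.6, 12.4 and 13.4 CPM in KO and 9.53, 9.96 and 9.42 CPM in WT, the tightest groups among the enzymes that separated (log2 fold change 0.41, adjusted p = 0.264, edgeR; with offsets 0.23). Sc5d, the desaturase before it, had 48.1, 49.5 and 45.6 CPM in KO and 45.4, 54.7 and 59.9 CPM in WT, which overlap (log2 fold change -0.16; with offsets 0.45).

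Counted over all 32 genes, 9 did not overlap with KO above WT (Pmvk, Sqle, Msmo1, Ebp, Dhcr7, Nr1h2, Nr1h3, Scarb1 and Soat1) and 4 with KO below WT (Cyp51, Insig1, Lrp1 and Abca1). That is 28.1% and 12.5% of the genes, against 15.8% and 19.6% of all tested genes. By library, KO library 1 was the highest for 11 of the 32 genes and KO library 3 for 10, while WT library 3 was the lowest for 10 and WT library 1 for 8. Over all genes, KO library 1 was the highest for 24.2%, KO library 3 for 22.4%, WT library 3 the lowest for 23.4% and WT library 1 for 18.8%. KO library 2 and WT library 2, which had the flattest length slopes, were the highest for 1 and 0 of the 32 genes, against 5.77% and 7.11% of all genes.

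**Figure D3:**
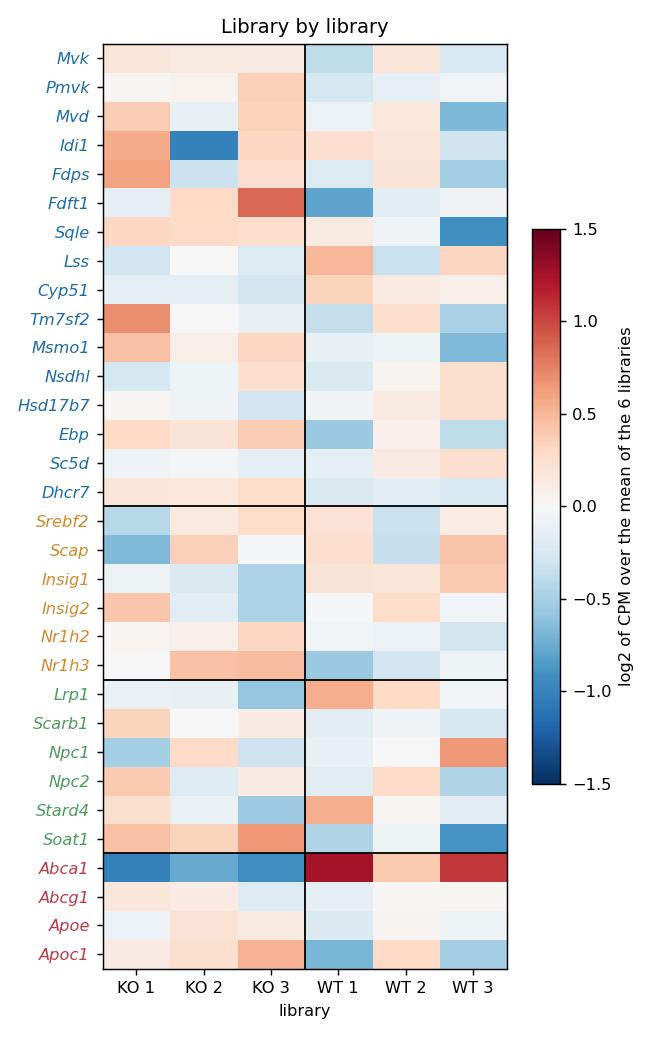
Heat map of the 32 genes (rows, name colours as in the fold change plot) by library (columns, KO 1 to 3 and then WT 1 to 3), coloured by log2 of CPM over the mean of the 6 libraries. Abca1 is low in all 3 KO libraries and high in WT library 1 (58.0 CPM) and WT library 3 (51.1 CPM), while Fdft1 varies within both groups.

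Per kilobase of principal transcript, the levels spanned a range from Apoc1, at 1219 CPM per kilobase in KO and 841 in WT, to Idi1, at 0.233 in KO and 0.229 in WT. Apoe (787 in KO and 699 in WT) and Npc2 (130 in KO and 113 in WT) came next after Apoc1; the libraries of Apoc1 and Apoe overlap each other in WT, and those of Npc2 lie below both; in KO all libraries of Apoc1 lie above those of Apoe. Insig1 came after these in WT at 48.4 and had 34.2 in KO, where Fdft1 (39.8), Nr1h3 (38.8) and Scarb1 (37.6) had higher means whose libraries overlap those of Insig1. Among the synthesis enzymes Fdft1 was the highest in mean and Idi1 the lowest, and Pmvk and Ebp, next to each other in the order, overlap in both groups. Abca1 stood between Npc1 and Fdps in WT at 4.58 and had 1.28 in KO, where it was below Lss (1.51), Abcg1 (1.51) and Srebf2 (1.34) in mean, with libraries that overlap all 3. Lrp1 (0.552 in KO and 0.801 in WT) and Soat1 (0.554 in KO and 0.293 in WT) were among the lowest, and their libraries overlap in KO but not in WT.

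**Figure D4:**
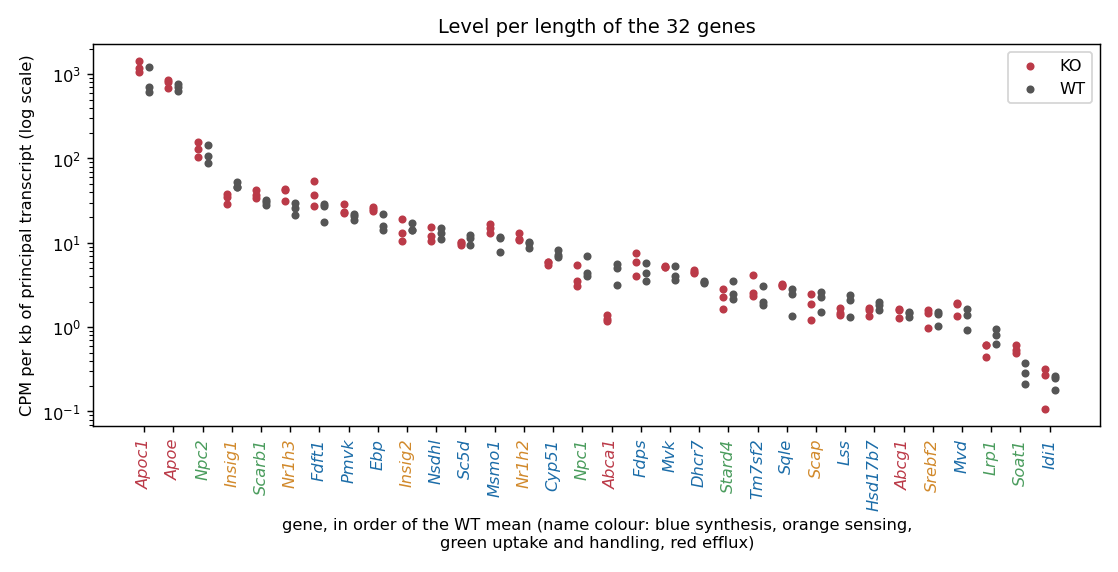
Level of each of the 32 genes per library, in CPM per kilobase of principal transcript on a log scale, with KO left and WT right for each gene, in the order of the WT mean. Apoc1 and Apoe lie highest and Idi1 lowest, and Abca1 shows the widest gap between the groups, with a mean of 1.28 in KO and 4.58 in WT.

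Fold change and transcript length were related over the cholesterol genes as over all genes. Across the 32 genes, which share the same 6 libraries, Spearman's rho between longest transcript and log2 fold change was -0.46, and across 11863 tested genes with a length it was -0.58. With length and GC offsets the values were 0.45 across the 32 genes and -0.04 across all genes. Of the 32 signs, 12 turned with these offsets and 10 with offsets on the median transcript, so directions of single genes with small differences are not given as findings.

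**Figure D5:**
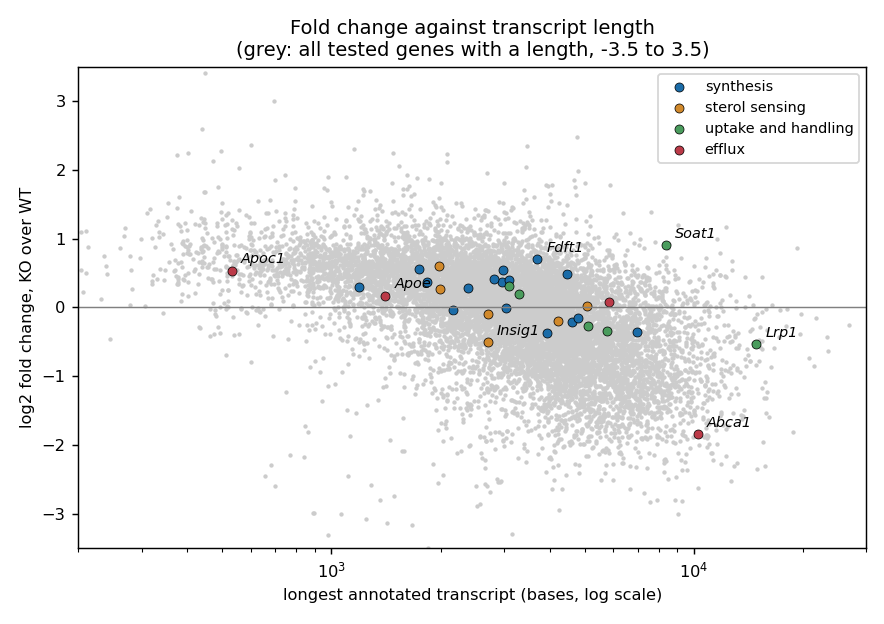
Log2 fold change, KO over WT, against the longest annotated transcript in bases (log scale), with the 32 cholesterol genes in colour and all tested genes in grey. Abca1, at 10262 bases and -1.84, lies on the low side of genes of its length and Soat1 (0.91) lies above nearly all of them.

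Other genes of the pathway were counted from lists chosen with earlier results of these data known. Among mevalonate branch and sterol enzyme partner genes, none of 12 tested passed the threshold in either direction (median log2 fold change 0.14). Erg28, a scaffold of the demethylation complex best known from yeast, came closest, with 19.4, 22.5 and 30.0 CPM in KO and 9.13, 17.4 and 13.8 CPM in WT. The log2 fold change of Erg28 was 0.83 (adjusted p = 0.087, edgeR), and with offsets 1.00 (adjusted p = 0.089, edgeR). Of 13 genes of SREBP processing and sterol-regulated degradation none passed (median -0.19). Mbtps2, the site-2 protease that releases SREBP, had 10.6, 8.04 and 2.35 CPM in KO and 14.2, 13.0 and 16.6 CPM in WT, and KO library 3 was the lowest of all. The log2 fold change of Mbtps2 was -1.05 (adjusted p = 0.121, edgeR), but with offsets -0.39 (adjusted p = 0.540, edgeR).

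Of 8 tested lipoprotein receptors and adaptors, 1 was lower and none higher (median -0.46), where 7.52% of all tested genes were called lower. It was Vldlr, a receptor that binds triglyceride-rich lipoproteins, with 34.7, 46.5 and 36.8 CPM in KO and 119, 75.5 and 114 CPM in WT. The groups did not overlap, and the log2 fold change was -1.39 (adjusted p = 0.017, edgeR), but with offsets it was -0.51 (adjusted p = 0.123, edgeR). Mylip, the LXR-induced ligase that degrades such receptors, had a log2 fold change of -0.61 and a close value with offsets, -0.63 (adjusted p = 0.106 and 0.101, edgeR).

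Of 12 genes of intracellular sterol transport and esters, none passed (median -0.02). Osbp, an oxysterol-binding exchanger, had 10.6, 14.7 and 11.6 CPM in KO and 25.4, 15.5 and 26.4 CPM in WT (log2 fold change -0.86, adjusted p = 0.069, edgeR). Stard3, a sterol carrier of late endosomes, had 17.7, 12.6 and 14.6 CPM in KO and 7.78, 10.9 and 6.73 CPM in WT (0.82, adjusted p = 0.078, edgeR). With offsets Osbp was at -0.61 and Stard3 at 0.44 (adjusted p = 0.126 and 0.283, edgeR). Of 10 oxysterol and LXR genes, none passed (median 0.38, and -0.03 with offsets). Smpdl3a, a known LXR target in human and mouse cells, had 253, 227 and 247 CPM in KO and 144, 222 and 172 CPM in WT (log2 fold change 0.43, adjusted p = 0.225, edgeR). Of the genes named here as induced by LXR, Smpdl3a (0.31 with offsets) and Abcg1 (0.08) had the sign opposite to that of Abca1. Mylip had the same sign as Abca1, and with offsets on the median transcript Abcg1 was at -0.14. Abca1 alone of these genes passed the threshold. Apoc2, with the smallest p of these genes, had 1.42, 0.984 and 1.02 CPM in KO and 0.507, 0.614 and 0.538 CPM in WT. Its log2 fold change was 1.03 (adjusted p = 0.142, edgeR), and 0.34 with offsets. LXR activity was not tested.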

How the data were processed

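RNA was sequenced from 3 KO-labelled and 3 WT pools of mature brown fat, grouped and numbered as labelled. The authors deposited raw counts per Ensembl gene, 1 file per library, with no normalization. Per the submitters' processing notes, reads were handled with STAR 2.5.4b and build mm9. Not given in the sources used here are the counting program, its strand setting and its annotation. Symbols and lengths came from GENCODE M21 on GRCm38, promoters from RefSeq on GRCm38.p6, and no coordinates of the count files were used. Of 37620 identifiers, 32897 had a symbol, and the rest held 0.178% of counts. No libraries held identical values.

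Counts were tested in R 4.3.3 with edgeR 4.0.16: filterByExpr (minimum count 10, minimum total 15), TMM, a robust quasi-likelihood F test (two-sided) and Benjamini-Hochberg adjustment over 12068 genes. Standard errors and 95% intervals came from the F statistic. Offsets were smooth terms of basis size 6 (mgcv 1.9.3) on log2 length and GC of each library's log2 ratio to the gene mean (prior count 2). limma 3.58.1 (voom) and DESeq2 1.42.0 were alternatives, as were other scalings, filters, offsets, the replicate block and leaving out each library. The fits were tested on simulated data. The 33 genes, the other lists and the motifs were chosen with earlier results of these data known. The genes named beside the 33 were Phospho1, up to 3 of each list with the smallest p, and single genes that overlap or mark a result (Ctsb, Lyz2, Cd163, Acta2, Tagln, Myl9), chosen after seeing their values.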

Additional observations from a re-analysis of the deposited data

How the results depend on the processing

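Abca1 was lower in KO under every alternative run, with log2 fold changes from -2.11 (total counts) to -0.99 (length offset). The count of cholesterol genes called lower was 0 in place of 1 with length and GC offsets, with a length offset, with offsets on the principal transcript, with the replicate block plus offsets and at an adjusted p of 0.01, and 0 to 1 when each library was left out. The count called higher was 1 in place of 0 with a GC offset (Soat1) and at an adjusted p of 0.1, and 0 to 1 when each library was left out (Apoc1 without WT library 2). Over all genes, 197 were called higher; the count was 29 with total counts, 1 with length and GC offsets, 4 with a length offset, 83 with median-transcript offsets, 1 with principal-transcript offsets, 0 with the replicate block plus offsets, 493 with DESeq2, 1 at an adjusted p of 0.01, 748 at 0.1, and 0 to 688 when each library was left out. Of 908 called lower, the count was 1389 with total counts, 0 with length and GC offsets, 12 with a length offset, 392 with a GC offset, 142 with median-transcript offsets, 0 with principal-transcript offsets, 0 with the replicate block plus offsets, 0 at an adjusted p of 0.01, 1630 at 0.1, and 0 to 1383 when each library was left out. The cause was not tested. Signs turned for 12 of 32 genes with length and GC offsets, 15 with principal-transcript offsets, 5 with total counts (Srebf2, Nr1h2, Npc2, Abcg1 and Apoe) and none with DESeq2 or limma-voom.

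Correlations of deviations between libraries sharing a replicate number were 0.145, -0.534 and 0.0318, and those between differently numbered libraries ranged from -0.424 to 0.545. Taken within groups of 3 libraries, these values cannot show whether a shared number marks a shared day or litter. With the replicate block, Abca1 was at -1.80 (adjusted p = 0.00109, edgeR) and the counts of cholesterol genes called stayed at 0 higher and 1 lower.

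Depth limits Idi1 (4 to 14 counts), Mvd (18 to 43 counts) and Soat1 (20 to 51 counts) most. A gene that misses the threshold is not shown to be equal between the groups. P-values measure the spread between pools of mice, and the knockout label rests on the labels alone.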
